A study of Mus musculus with 4 samples.

Results

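The 49 genes described here encode the machinery that copies DNA in S phase, together with enzymes that supply its precursors, factors that wrap the copy into chromatin, and the E cyclins. They were taken as a fixed set of symbols, chosen with earlier results of these data known. All 49 had a probe among the 22911 genes named on the array, and all 49 were well above background on all 4 arrays. The arrays measured total RNA of MC3T3-E1 cells, an osteoblastic line from mouse calvaria. For the Control group the labels name no agent and no vehicle. The other groups received Miglustat at 50 µM, D-PDMP at 10 µM or D-PPMP at 1.0 µM for 4 days, and every group was then replated and cultured for 24 h, with no statement on whether the inhibitors stayed in the medium. The 3 compounds inhibit glucosylceramide synthase, the enzyme that starts the synthesis of most glycosphingolipids. Miglustat is an iminosugar, whereas D-PDMP and D-PPMP are ceramide analogues with a morpholino group that differ in the length of their acyl chain. Each group had 1 array, so there is no replicate error and no test. The doses differ, so the values of the inhibitors are given side by side.

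DNA replication begins when the origin recognition complex, Cdc6 and Cdt1 load the ring of Mcm2 to Mcm7 onto DNA in G1. Cdc45 and the GINS complex turn that ring into a moving helicase at the start of S phase, after which primase, the replicative polymerases, the Pcna clamp and its loader copy both strands. Many of these genes are transcribed in a wave near the G1/S border under E2F transcription factors, which the retinoblastoma protein family holds back. Osteoblast precursors divide before they lay down and mineralise matrix, and proliferation genes then decline.

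A level is given as the log2 signal of a gene's brightest probe minus the 75th percentile of its array. A ratio is the difference of 2 such levels, inhibitor minus Control, on the log2 scale, and 3 ratios in a row follow the order Miglustat, D-PDMP, D-PPMP, and 4 levels in a row put the Control array first. The error that the scanner software gives for a ratio of these genes was 0.20 at the median (0.204 at the lowest, 0.228 at the highest). It covers measuring only. It was nearly the same for all members, and also 0.20 at the median of all genes with Miglustat, so it acts as a nearly fixed cutoff. The spread between repeated spots of bright probes within arrays comes to 0.046 for a ratio. Of the 49 genes, 12 had a ratio beyond its scanner error on the Miglustat array, 14 on the D-PDMP array and 12 on the D-PPMP array. The same count over all genes was not made, so these counts do not set the 49 genes apart. All 4 arrays lay on 1 slide, each group in its own position, and a group cannot be told apart from its position. The share of probes well above background was 57.4% in Control and between 60.2% and 62.4% in the inhibitor groups, and its part in the results was not tested. Of 11 osteoblast markers, 8 were well above background on all arrays, among them Runx2, Sp7 and Col1a1, while Alpl and Ibsp were so on none. Markers of other lineages not well above background on any array were Myod1, Myog and Ckm of skeletal muscle, Ptprc and Adgre1 of macrophages, Cdh5 and Kdr of endothelium, Plin1 of adipocytes and Epcam of epithelium. Cd68, Csf1r, Pecam1, Fabp4 and Cdh1 were well above background on all 4. As linear levels relative to the 75th percentile, the summed markers were 1277 to 1511 for osteoblasts, 1.98 to 2.31 for macrophages, 0.0869 to 0.126 for endothelium, 0.15 to 0.222 for adipocytes, 0.0175 to 0.0318 for muscle and 0.104 to 0.177 for epithelium over the 4 arrays, and their part in the results was not tested.

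With Miglustat, 39 of the 49 replication genes lay below Control and 10 above it, and their median ratio was -0.11, or 1.08-fold lower. Among all 14171 genes measured, 55.5% lay below Control and 44.5% above it, and the median was -0.02. With D-PDMP, 46 of 49 lay above Control and 3 below it, with a median of 0.15, or 1.11-fold higher. Of 14154 genes measured, 49.6% lay above Control and 50.4% below it, with a median of 0.00. With D-PPMP, 46 of 49 again lay above Control and 3 below it, with a median of 0.15, or 1.11-fold higher. Of 14200 genes measured, 48.5% lay above Control and 51.5% below it, with a median of -0.01. The sign of Orc1, Orc2, Rfc4, Fen1, Tyms and Ccne1 with Miglustat and of Rpa3, Rrm1 and Ung with D-PDMP depended on the processing. Ung with Miglustat and Rpa3 with D-PPMP read 0 in the authors' table and lay above Control otherwise. These 3 comparisons share the Control array. In a bulk culture, a different number of cells in S phase and a different amount of RNA per cell cannot be told apart.

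The distances were small for each gene. None of the 49 was 2-fold from Control with any inhibitor. Of all genes measured, 0.388% were so with Miglustat (0.212% higher and 0.176% lower), 0.325% with D-PDMP (0.155% and 0.17%) and 0.507% with D-PPMP (0.303% and 0.204%). A smaller distance of 0.32 on the log2 scale was also counted. By that measure 1 member (Gins3) was lower with Miglustat, beside 4.59% of all genes, and none was higher, beside 5.77%. With D-PDMP 2 members, Cdt1 and Rfc3, were higher by at least as much, beside 4.91%, and none was lower, beside 4.8%. Rfc3 and Ccne2 were so with D-PPMP, beside 7.54%, and none was lower, beside 5.23%. Ccne2 with D-PDMP, at 0.321, fell just short.

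With all 4 arrays ranked for each gene, the Miglustat array held the lowest of the 4 levels for 37 of the 49 genes, beside 33.9% of the 14003 genes well above background on all arrays. The D-PDMP array held the highest level for 30, beside 23.7%, and the D-PPMP array for 17, beside 25%. Control held the highest level of 1 member, beside 26.4% of all genes, and the lowest of 10, beside 21.1%. The D-PDMP array was the lowest for 0 members, beside 17.6% of all genes, and the D-PPMP array for 2, beside 27.4%. The Miglustat array was the highest for 1, beside 24.9%. The range between a gene's lowest and highest array had a median of 0.32 over the members and of 0.20 over all 14003 genes.

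**Figure D1:**
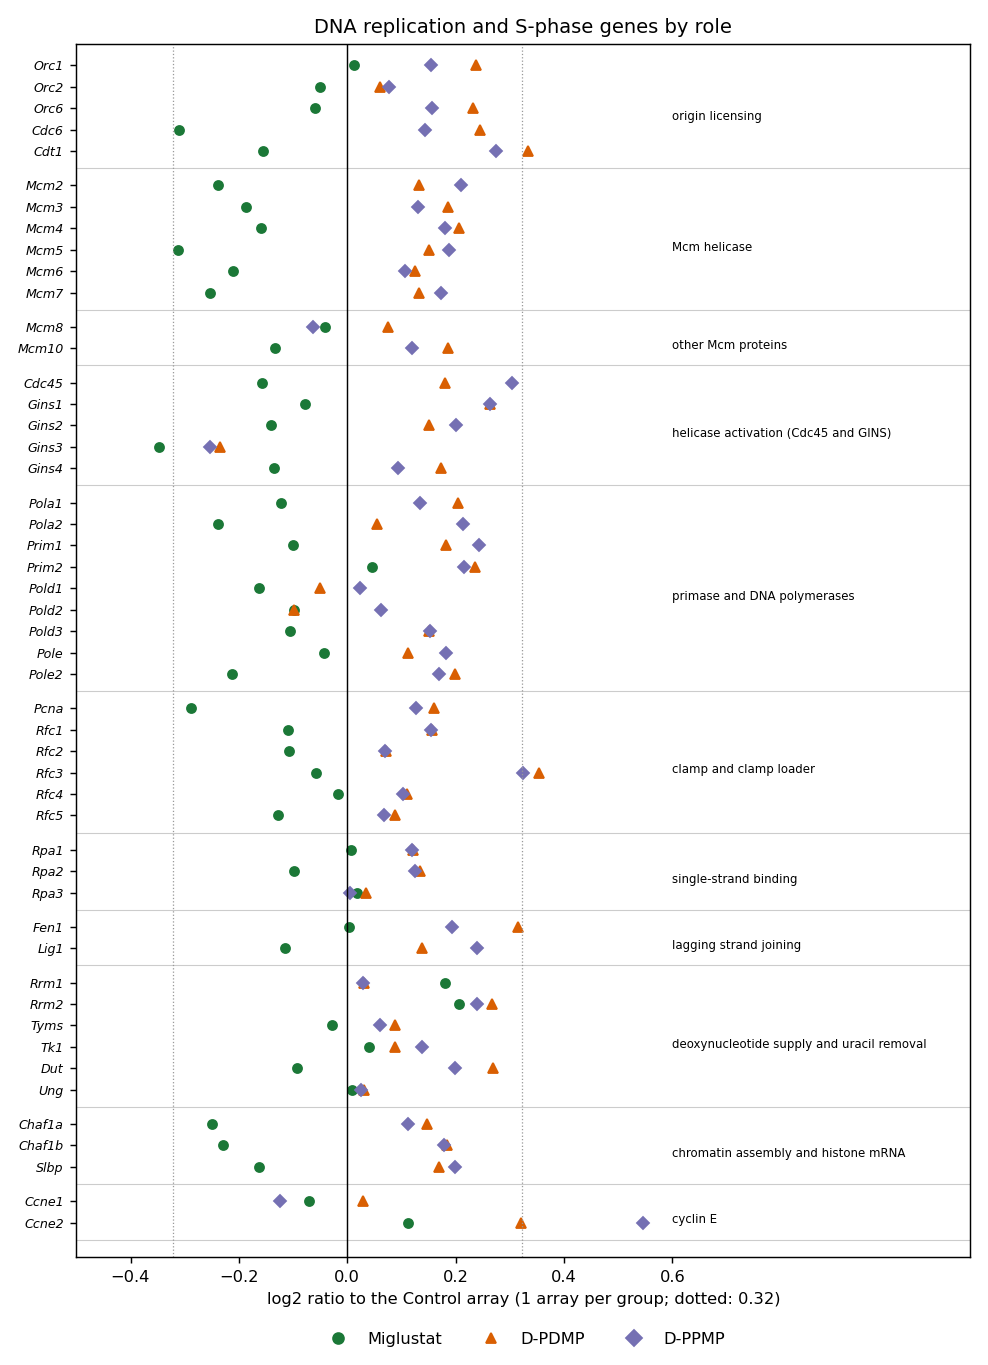
Log2 ratio to the Control array (x axis) of each of the 49 genes (rows, grouped by role) with Miglustat (circles), D-PDMP (triangles) and D-PPMP (diamonds), 1 array each; the dotted lines mark a distance of 0.32. Most circles lie left of 0 and 46 of 49 triangles and of 49 diamonds lie right of it, with Gins3 left of 0 in all 3.

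The Mcm2 to Mcm7 ring is the core of the replicative helicase, and its 6 genes lay on the same side of Control as one another with every inhibitor. Their median ratios were -0.22, 0.14 and 0.18. For Mcm2 the Control array read 4.18 and the Miglustat array 3.94, while the D-PDMP array read 4.31 and the D-PPMP array 4.39. Mcm3 stood at 5.89, 5.70, 6.07 and 6.02 in the same order, and Mcm4 at 5.58, 5.43, 5.79 and 5.77. For each of these the Miglustat array was the lowest and Control came next. Mcm5 had levels of 4.60, 4.29, 4.75 and 4.79 and ratios of -0.31, 0.15 and 0.19, each with an error of 0.20, the first being the lowest Miglustat ratio of the ring on the brightest probes. Mcm6 stood at 6.74, 6.53, 6.87 and 6.85, and Mcm7 at 5.52, 5.27, 5.65 and 5.70. Again the D-PDMP and D-PPMP arrays were both above Control and the Miglustat array below it. Mcm3 had 2 further probes and Mcm6 and Mcm7 had 1 each. With Miglustat these read -0.27 and -0.25 for Mcm3, -0.25 for Mcm6 and -0.34 for Mcm7, while the ratios of the brightest probes were -0.19, -0.21 and -0.25. With D-PPMP the further probes read 0.20, 0.17, 0.32 and 0.19. Mcm8, which serves in recombination repair, was at -0.04, 0.07 and -0.06. Over the ways of processing tried, it ran from -0.20 to -0.03 with Miglustat and from -0.14 to -0.06 with D-PPMP. Mcm10, which helps start the loaded helicase, was at -0.13, 0.19 and 0.12.

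**Figure D2:**
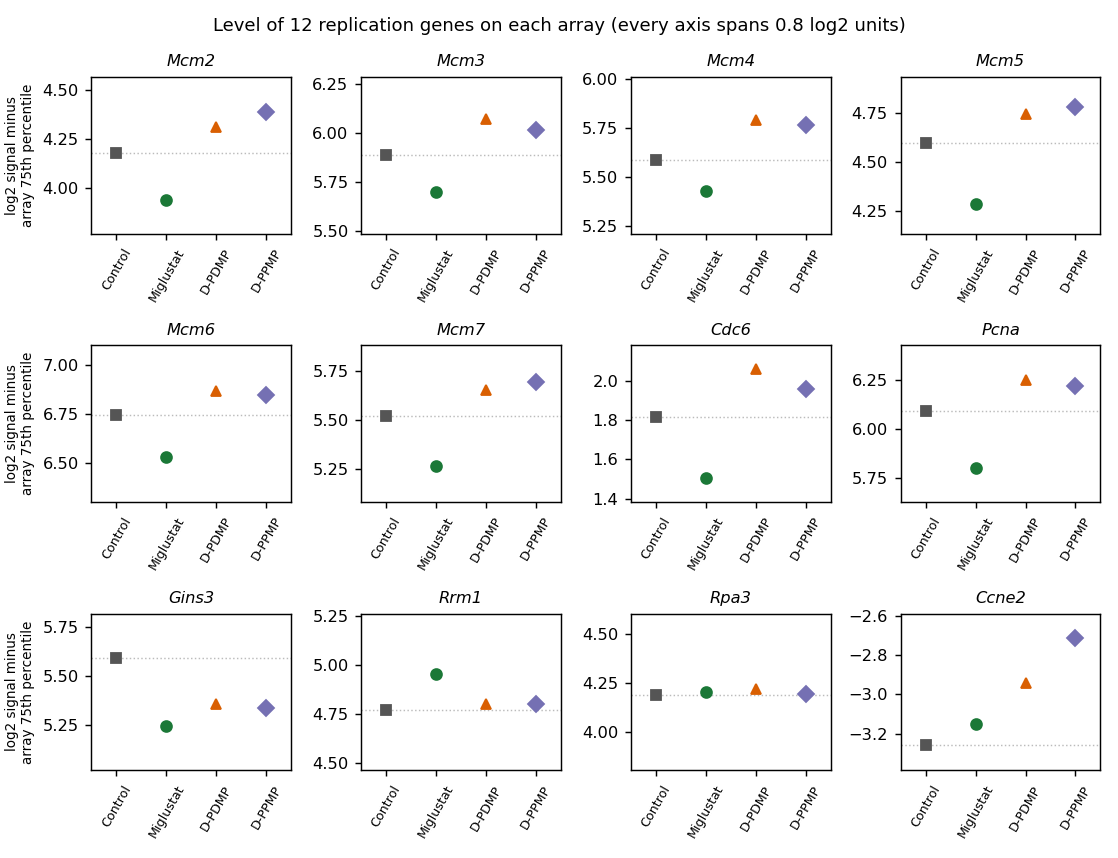
Level (log2 signal minus the array's 75th percentile, y axis) of 12 of the genes on each of the 4 arrays (x axis), with Control marked by a dotted line and every y axis spanning the same distance. The 6 Mcm genes, Cdc6 and Pcna are lowest on the Miglustat array and above Control on the D-PDMP and D-PPMP arrays, whereas Gins3 is highest in Control, Rrm1 highest with Miglustat, Rpa3 nearly level and Ccne2 highest with D-PPMP.

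Promoters of these genes are shown because E2F-bound promoters are the textbook route of their joint transcription. A promoter here is the stretch from 250 bases before to 50 bases after a gene's start, from RefSeq on build GRCm38.p6. Entries were found for 41 of the 49 members, in 47 promoters, and none for Ccne2, Gins1, Gins2, Gins4, Mcm4, Pole, Prim2 and Rfc2. The E2F motif was searched as TTTCCCGC, TTTCGCGC, TTTGCCGC and TTTGGCGC on both strands, where matches on opposite strands may overlap each other. At least 1 match was found in 15 of 47 member promoters (31.9%), beside 2.26% of all 32851 promoters of the same length. The 15 genes were Cdc6, Cdt1, Gins3, Lig1, Mcm3, Mcm5, Mcm6, Mcm7, Mcm8, Orc1, Pola1, Pold1, Pold3, Pole2 and Rfc3. A match is a description of the letters and does not show that a factor binds. Below, capitals mark the matches in 4 promoters, those of 2 ring subunits with several matches, of Rfc3, at least 0.32 above Control with D-PDMP and D-PPMP, and of Gins3, at least as far below it with Miglustat.
Mcm5, chr8:75109259-75109558, plus strand: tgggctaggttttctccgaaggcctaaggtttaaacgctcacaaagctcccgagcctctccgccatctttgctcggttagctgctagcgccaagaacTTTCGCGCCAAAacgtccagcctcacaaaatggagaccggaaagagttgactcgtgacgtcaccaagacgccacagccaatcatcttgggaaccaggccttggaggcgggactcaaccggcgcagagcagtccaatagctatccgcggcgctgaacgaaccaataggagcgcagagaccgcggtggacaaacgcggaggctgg
Mcm6, chr1:128359656-128359955, minus strand: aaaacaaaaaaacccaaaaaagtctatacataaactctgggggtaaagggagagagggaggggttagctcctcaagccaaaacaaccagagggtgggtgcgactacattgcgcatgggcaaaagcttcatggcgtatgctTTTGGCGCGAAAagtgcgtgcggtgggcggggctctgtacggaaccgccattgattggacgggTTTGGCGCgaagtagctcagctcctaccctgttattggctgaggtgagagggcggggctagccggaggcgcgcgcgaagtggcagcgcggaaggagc
Rfc3, chr5:151651159-151651458, minus strand: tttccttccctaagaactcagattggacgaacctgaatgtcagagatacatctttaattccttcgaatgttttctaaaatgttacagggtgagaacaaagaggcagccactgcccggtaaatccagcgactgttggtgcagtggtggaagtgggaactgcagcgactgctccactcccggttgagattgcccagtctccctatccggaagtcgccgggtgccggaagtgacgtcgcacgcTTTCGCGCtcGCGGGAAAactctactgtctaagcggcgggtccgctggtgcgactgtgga
Gins3, chr8:95633309-95633608, plus strand: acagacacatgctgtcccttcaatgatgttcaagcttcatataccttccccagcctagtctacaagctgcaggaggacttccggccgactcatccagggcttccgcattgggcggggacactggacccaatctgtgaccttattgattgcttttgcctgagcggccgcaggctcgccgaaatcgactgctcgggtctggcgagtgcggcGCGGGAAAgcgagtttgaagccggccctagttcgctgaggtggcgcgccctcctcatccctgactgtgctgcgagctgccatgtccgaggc

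In the Mcm5 promoter 2 matches on opposite strands overlap in 1 stretch, and in the Mcm6 promoter 3 matches form 2 stretches. The Rfc3 promoter holds 2 separate matches close to the gene's start. The Gins3 promoter holds 1 match. Members with a match had median ratios of -0.16, 0.15 and 0.15 over 15 genes. Members with an entry and no match had -0.09, 0.13 and 0.13 over 26 genes. With Miglustat the ranges overlap, from -0.35 to 0.01 with a match against -0.29 to 0.21 without, and no difference was tested.

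Origin licensing marks where replication can begin. Cdc6, the loader of the Mcm ring, had a level of 1.81 in Control and of 1.5 with Miglustat, against 2.06 with D-PDMP and 1.96 with D-PPMP. Its ratios were -0.31, 0.25 and 0.14, each with an error of 0.20, and its other probe read -0.43, 0.19 and 0.14. Both probes of Cdc6 thus placed the Miglustat array lowest. Cdt1, its partner in loading, stood at 4.98, 4.83, 5.32 and 5.26, with a ratio of 0.33 for D-PDMP. The origin recognition subunits lay closer to Control with Miglustat, Orc1 at 0.01, Orc2 at -0.05 and Orc6 at -0.06. With D-PDMP they were at 0.24, 0.06 and 0.23, and with D-PPMP at 0.16, 0.08 and 0.16. The other probe of Orc1 read -0.16 with Miglustat and that of Orc2 0.17, so no side of Control can be given for these 2 genes there.

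Cdc45 and the 4 GINS subunits complete the active helicase. Cdc45 had levels of -0.15, -0.31, 0.03 and 0.15 on the 4 arrays in the order used above, with ratios of -0.16, 0.18 and 0.30. Its other probe lay on the opposite side with D-PDMP, at -0.09, and on the same side with Miglustat and D-PPMP, at -0.28 and 0.09. Gins1 was at -0.08, 0.26 and 0.26, Gins2 at -0.14, 0.15 and 0.20, and Gins4 at -0.14, 0.17 and 0.09. Gins3 lay below Control on all 3 inhibitor arrays. Its levels were 5.59, 5.24, 5.36 and 5.34, so Control was the highest of the 4 arrays. The ratios were -0.35, -0.23 and -0.25, each with an error of 0.20, from the gene's only probe.

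Primase and polymerase alpha make the primers, and polymerases delta and epsilon extend them. With Miglustat 8 of these 9 genes lay below Control, from -0.24 for Pola2 to -0.04 for Pole, and Prim2 lay at 0.05. With D-PDMP 7 of 9 were above Control, led by Prim2 at 0.24 and Pola1 at 0.21, while Pold1 and Pold2, the catalytic and a small subunit of polymerase delta, were at -0.05 and -0.10. All 9 were above Control with D-PPMP, from 0.02 for Pold1 to 0.24 for Prim1. Pole2, a subunit of polymerase epsilon, was at -0.21, 0.20 and 0.17. Pold3 was at -0.11, 0.15 and 0.15, and Pole at 0.11 with D-PDMP and 0.18 with D-PPMP. Pola2 had levels of -0.71, -0.95, -0.66 and -0.50, lowest with Miglustat and highest with D-PPMP. Pold1 and Pold2 were thus the polymerase genes nearest to Control with D-PPMP, and the pair below it with D-PDMP.

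Pcna is the sliding clamp that tethers polymerases to DNA and a common marker of dividing cells. Its level was 6.09 in Control and 5.81 with Miglustat, against 6.25 with D-PDMP and 6.22 with D-PPMP, and its ratios -0.29, 0.16 and 0.13. The 5 subunits of replication factor C, which opens and loads the clamp, were all below Control with Miglustat, from -0.13 for Rfc5 to -0.02 for Rfc4, and all above it with the other inhibitors. Rfc3 lay highest of them. Its levels were 3.07, 3.01, 3.42 and 3.39, with ratios of 0.35 with D-PDMP and 0.33 with D-PPMP, each with an error of 0.20. Its other probe gave 0.28 and 0.38. Rfc1, Rfc2, Rfc4 and Rfc5 stood between 0.07 and 0.16 with both of these inhibitors.

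The single-strand binding protein RPA coats unwound DNA, and its genes had ratios between -0.10 and 0.13. Rpa3 was nearly level, with 4.19, 4.21, 4.22 and 4.19. Rpa1 was at 0.01, 0.12 and 0.12, and Rpa2 at -0.10, 0.13 and 0.13. Of the genes that finish the lagging strand, Fen1, the flap endonuclease, had levels of 5.28, 5.28, 5.60 and 5.47 and was level with Control under Miglustat. Lig1, the DNA ligase, was at -0.12, 0.14 and 0.24 on its brightest probe and at 0.03, 0.39 and 0.41 on the other. For Lig1 with Miglustat the probes therefore lie on either side of Control.

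Among the genes of deoxynucleotide supply and uracil removal, 4 of 6 lay above Control with Miglustat and all 6 with D-PDMP and D-PPMP. Rrm1 and Rrm2 are the large and small subunits of ribonucleotide reductase, which makes deoxynucleotides. Rrm1 had a level of 4.77 in Control and of 4.95 with Miglustat, against 4.80 with both D-PDMP and D-PPMP, and was the only member highest on the Miglustat array. Rrm2 stood at 5.53, 5.74, 5.80 and 5.77, above Control on all 3 inhibitor arrays, with ratios of 0.21, 0.27 and 0.24. Tk1, thymidine kinase, was at 0.04, 0.09 and 0.14, and Tyms, thymidylate synthase, at -0.03, 0.09 and 0.06. Dut, which removes dUTP from the precursor pool, was at -0.09, 0.27 and 0.20. Ung, which cuts uracil out of DNA, was at 0.01, 0.03 and 0.03, with levels of 6.06, 6.07, 6.09 and 6.08.

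Chaf1a and Chaf1b form the chromatin assembly factor that sets histones on new DNA. Chaf1a had levels of 3.71, 3.46, 3.85 and 3.82, and Chaf1b of 4.72, 4.50, 4.91 and 4.90, both lowest with Miglustat. Their ratios were -0.25, 0.15 and 0.11 for Chaf1a and -0.23, 0.18 and 0.18 for Chaf1b. Slbp, which binds the stem loop of histone mRNAs, was at -0.16, 0.17 and 0.20, and its other probe at 0.01, 0.22 and 0.16. The E cyclins drive Cdk2 at the entry into S phase, and their 2 genes had unlike values. Ccne1 was at -0.07, 0.03 and -0.12. Ccne2 had levels of -3.26, -3.15, -2.94 and -2.71, lowest in Control and highest with D-PPMP, where its ratio was 0.55 (1.46-fold, error 0.22). Its ratios with D-PDMP and D-PPMP, 0.32 and 0.55, became 0.14 and 0.12 with normexp background correction. Ccne2 had the largest error of the members.

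Among the 49 genes, 18 had more than 1 probe, with 19 further probes in all. The further probe lay on the same side of Control as the brightest one in 15 of 19 cases with Miglustat, in 18 with D-PDMP and in 19 with D-PPMP. The gap between the 2 ratios had a median of 0.08, 0.06 and 0.05, and the largest gap was 0.27, for Cdc45 with D-PDMP. At the median, 2 probes of a gene therefore lay closer together than the error given by the scanner software. Neither covers differences between cultures.

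Other genes of S phase were described by 5 lists. Of all genes measured, 55.5% lay below Control with Miglustat, 49.6% above it with D-PDMP and 48.5% above it with D-PPMP. Highest and lowest within a list refer to the brightest probes, and further probes of some genes lay beyond them. Of 29 further replication factors, all measured, 21 lay below Control with Miglustat, 24 above it with D-PDMP and 20 above it with D-PPMP, with medians of -0.07, 0.12 and 0.08. The count above Control with Miglustat was 8, and 13 under cyclic loess normalization. The lowest with Miglustat was Dna2, a nuclease of Okazaki fragments, at -0.23, which was also the highest with D-PPMP at 0.40. Dscc1, a part of an alternative clamp loader, was highest with D-PDMP at 0.34, and Dbf4, the activator of the Cdc7 kinase, highest with Miglustat at 0.25. With Miglustat the other probes of Orc5 and Cdc7 read 0.33 and 0.31, against 0.07 and -0.12 on their brightest. The side of Control of Cdc7 is thus uncertain there. Chtf8 was lowest with D-PDMP and D-PPMP, at -0.08 and -0.11. Of 10 genes of chromatin copied with DNA, 7 lay below Control with Miglustat, 9 above it with D-PDMP and 9 with D-PPMP, with medians of -0.10, 0.18 and 0.13. There Hells, a remodeller needed for DNA methylation, was highest with D-PDMP at 0.32 and with D-PPMP at 0.40, and Cdca7, its partner, was lowest with Miglustat at -0.22, with its other probe at -0.30. Asf1a, a histone chaperone, was highest with Miglustat at 0.12 on its only probe. Cbx5, a heterochromatin protein, read -0.10 and -0.09 with D-PDMP and D-PPMP on its brightest probe and 0.14 and 0.12 on the other, so no side of Control can be given for it. In the list of the replication checkpoint and fork repair, 16 of 20 were below Control with Miglustat, 15 above it with D-PDMP and 13 with D-PPMP, with medians of -0.07, 0.09 and 0.06. Msh6, of mismatch repair, was lowest with Miglustat at -0.27 and Atr, the checkpoint kinase, highest at 0.14. Bard1, the partner of Brca1, was highest with D-PDMP and D-PPMP at 0.32 and 0.30, and its other probe read 0.10 and 0.41. The checkpoint clamp gene Rad9a was lowest with D-PDMP at -0.13, with its other probe at -0.08. Rad1, of the same clamp, was lowest with D-PPMP at -0.23 on its brightest probe, but its 2 other probes read -0.25 and 0.63, so its side of Control is uncertain.

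Nucleotide supply outside the 49 genes had 21 measured genes, with medians of -0.08, 0.06 and 0.02. On the brightest probes Shmt1, which passes one-carbon units to thymidylate synthesis, was lowest with Miglustat at -0.59. Dck, which salvages deoxynucleosides, was highest on those probes with all 3 at 0.22, 0.37 and 0.33. The other probe of Shmt1 read -0.16, 0.50 and 0.55. That of Cad read 0.27 with Miglustat, against -0.08 on its brightest. The rank of Dck thus holds for the brightest probes only. Shmt2, the mitochondrial form, was lowest with D-PDMP at -0.21 (other probe -0.37), and Impdh1, of guanine nucleotide synthesis, lowest with D-PPMP at -0.27. With D-PPMP the other probe of Shmt2 read -0.36. Samhd1 read -0.0034, -0.10 and -0.19 on its brightest probe. Its further probes read 0.47 and 0.26 with Miglustat, 0.14 and 0.10 with D-PDMP, and 0.22 and 0.04 with D-PPMP. The side of Control of Samhd1 is therefore uncertain. The 26 measured genes of E2F, Rb and G1/S control had medians of 0.00, 0.07 and 0.01, and the sign of the first depended on the processing. In that list E2f2 was lowest with Miglustat at -0.48 (other probe -0.50), and Cdkn2d, a Cdk4 and Cdk6 inhibitor, highest at 0.30. Myc was highest with D-PDMP and D-PPMP at 0.38 and 0.44, and its other probe read 0.26 and 0.29. These ranks hold for the brightest probes only. The further probes of Rbl1 read 0.55 and -0.06 with D-PDMP and 0.43 and -0.0098 with D-PPMP. The other probe of Cdkn1a read 0.34 with Miglustat, against 0.13 on its brightest. E2f3 was lowest with D-PDMP at -0.20 and E2f5 with D-PPMP at -0.17. E2f1, the classical activator, stood at -0.11, 0.22 and 0.29, and Ccnd1, the cyclin of G1, at -0.23, 0.17 and 0.16. These 2 genes were picked after their values were seen. The other D cyclins stood elsewhere, Ccnd2 at 0.03, -0.03 and -0.16 and Ccnd3 at 0.04, 0.08 and 0.00. On the brightest probes E2f2, E2f6 and E2f7 had the signs of E2f1. Unlike it were E2f3 at -0.19, -0.20 and 0.01, E2f4 at -0.30, -0.11 and -0.03, and E2f5 at 0.12, -0.12 and -0.17. E2f8, at 0.04, 0.34 and 0.39, differed from it with Miglustat.

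**Figure D3:**
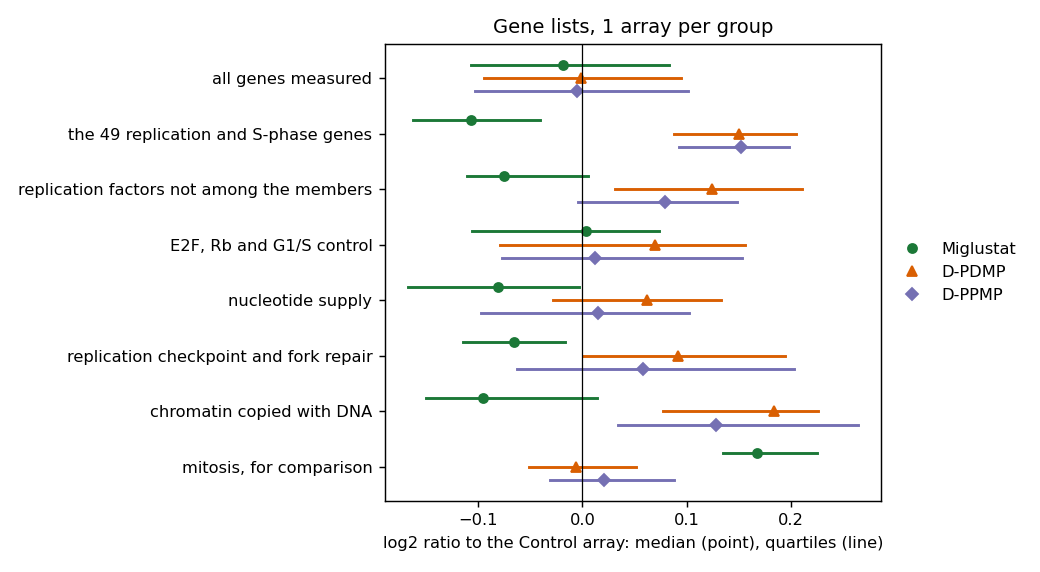
Median (point) and quartiles (line) of the log2 ratio to Control for all genes measured, the 49 replication and S-phase genes, 5 other lists of S phase and a list of mitosis, with Miglustat (circles), D-PDMP (triangles) and D-PPMP (diamonds), 1 array each. The 49 genes have medians of -0.11, 0.15 and 0.15, while all genes lie near 0 and mitosis genes at 0.17, -0.01 and 0.02.

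Genes of mitosis, the other transcription wave of the cell cycle, served as the comparison. With Miglustat 39 of 40 mitosis genes lay above Control, with a median of 0.17, beside 10 of the 49 replication genes and 44.5% of all genes measured. On the brightest probes Prc1, a protein of the central spindle, was highest at 0.37 (other probe 0.30), and Ccnb2, a mitotic cyclin, was lowest at -0.09. The other probe of Pttg1 read -0.37, against 0.06 on its brightest, so its side of Control is uncertain. The Miglustat array held the highest of the 4 levels for 38 of 40 mitosis genes and for 1 of the 49 replication genes, beside 24.9% of all genes. With D-PDMP 19 of 40 mitosis genes were above Control and with D-PPMP 24 of 40, with medians of -0.01 and 0.02. Of all genes measured, 49.6% and 48.5% were so. On the brightest probes Mad2l1, of the spindle checkpoint, was highest with D-PDMP at 0.16 (other probe 0.29). Nek2, a centrosomal kinase, was highest with D-PPMP at 0.17, whereas Aurka, the mitotic kinase Aurora A, was lowest with both at -0.25 and -0.27. The other probe of Kif2c read -0.33 with D-PDMP, against -0.19 on its brightest. That of Racgap1 read -0.40 with D-PPMP, against 0.02 on its brightest, so its side of Control is uncertain there. The difference between the 2 gene groups could not be tested with 1 array per group.

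**Figure D4:**
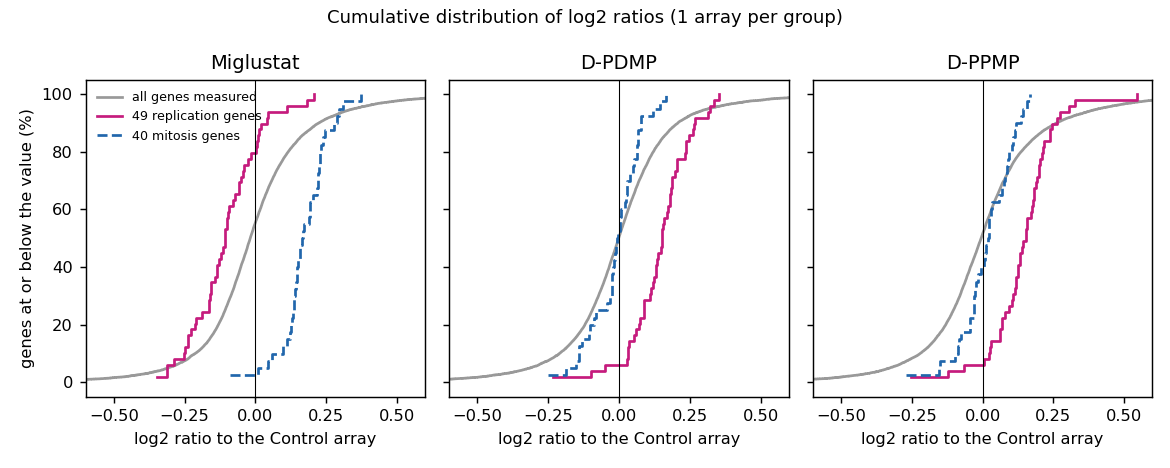
Cumulative share of genes (y axis, percent) at or below a log2 ratio to Control (x axis) for all genes measured, the 49 replication genes and 40 mitosis genes, 1 panel per inhibitor and 1 array per group. The replication curve lies left of the curve of all genes over most of its length with Miglustat (median -0.11 against -0.02) and right of it with D-PDMP and D-PPMP (0.15 each), and the mitosis curve lies right of it with Miglustat (0.17).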

How the data were processed

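Spot intensities were deposited for 4 one-colour arrays of MC3T3-E1 cells, with scanner output of Agilent Feature Extraction 12.1.1.1. Per the file headers, the intensity used (the processed signal) had background and spatial trend removed array by array, with no scaling across arrays. The authors' deposited table holds log2 values. Of these, 90.8% to 95.5% per array lay within 0.02 of the log2 processed signal minus the array's 75th percentile, so its scale and direction follow the signal. Its column medians were -4.1, -4, -4 and -3.89, and no centring on genes was seen. Control spots and spots marked as outliers (66 to 85 per array) were left out, spots of a probe were averaged as log2, and the 75th percentile over 56605 probes was subtracted. No spot was saturated. Accessions without version named 32994 probes (58.3%) for 22911 genes through RefSeq GRCm38.p6, while the array design names mm9. A gene took its brightest probe, and a ratio needed both arrays well above background. Within arrays, probes with 10 spots had a median SD of 0.0295 to 0.0371 when bright. The members and lists were chosen with earlier results of these data known. The text names all 49 members, the highest and lowest gene of each of 6 further lists with each inhibitor, and cell type markers. E2f1 and Ccnd1 were picked after their values were seen. The other E2f and D cyclin genes are given beside them. Samhd1, Pttg1, Cad, Orc5, Cdc7, Rbl1, Cdkn1a, Kif2c and Racgap1 are given for their further probes. Counts use a fold of 1.25 (0.322 on the log2 scale) and a fold of 2. The ratios and list summaries were tested on simulated arrays, but the percentile step, the background filter and the motif search were not. Alternatives used limma 3.58.1. The planned normexp correction on mean signals was run on the median spot signal, with an offset of 50. Python 3.11.15 and pandas 2.3.3 were used.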

Additional observations from a re-analysis of the deposited data

How the results depend on the processing

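The 7 alternatives kept the side of Control of the median of the 49 genes with each inhibitor. Those medians ranged from -0.11 to -0.08 with Miglustat, from 0.13 to 0.15 with D-PDMP and from 0.15 to 0.17 with D-PPMP, and the counts above Control from 8 to 12, from 43 to 46 and from 45 to 46. The share of all genes above Control ran from 40.2% to 48.7%, from 43.9% to 51.7% and from 44.0% to 52.5% over the settings. In every setting 35 members lay below Control with Miglustat, 43 above it with D-PDMP and 45 above it with D-PPMP. The same count over all genes was not made. The counts of members at least 0.322 (log2) from Control were small and moved. With D-PDMP, the 2 higher members became 0 with normexp, beside 0.777% of all genes in place of 4.91%. They became 1 with quantile normalization (3.5% of all genes), with the 75th percentile over detected probes (4.59%) and with the mean of a gene's probes (6.15%). With D-PPMP, the 2 became 0 with normexp, beside 1.24% of all genes in place of 7.54%, and 1 in the authors' table (7.3%). With Miglustat, the 1 lower member became 0 with cyclic loess (5.83% of all genes) and 2 with the mean of probes (4.85%), against 4.59%. The cause was not tested. With quantile normalization 4.35% of all genes were higher and 8.51% lower with D-PPMP, and 3.5% and 6.81% with D-PDMP. Several medians of the other lists moved by over 1.5 times. Over the settings, that of the replication factors outside the 49 genes ran from -0.08 to -0.04 with Miglustat, that of fork repair from 0.05 to 0.11 with D-PPMP, and that of chromatin copied with DNA from -0.10 to -0.05 with Miglustat. Nucleotide supply ran from 0.04 to 0.07 with D-PDMP and from 0.0058 to 0.04 with D-PPMP. The list of E2F, Rb and G1/S control ran from -0.0097 to 0.02, from 0.04 to 0.07 and from 0.01 to 0.03 with the 3 inhibitors, and mitosis from -0.02 to -0.0057 with D-PDMP and from 0.01 to 0.03 with D-PPMP. Among the members, Pola2 with D-PPMP went from 0.21 to 0.12 with normexp and Cdc45 from 0.30 to 0.20 with the mean of probes. No member was 2-fold from Control under any of them. No paired analysis was possible because each group has 1 array, and leaving out a replicate was not possible either. The single array per group limits the precision.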

Other observations

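Other promoter motifs differed in share between the gene groups. The CHR motif, searched as TTTGAA on both strands, was found in 10.6% of the 47 member promoters, in 73% of 37 promoters of the mitosis list and in 17.9% of all 32851 promoters. For the CCAAT box, searched as ATTGG on both strands, the shares were 57.4%, 78.4% and 37.4%. The E2F motif was in 2.7% of the mitosis promoters, beside 31.9% of the member promoters. These are counts of letters in a fixed window, and no test was made.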
